A study of Homo sapiens with 6 samples.

Results

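Heat shock proteins are the cell's main protein-folding machines, and 70 of the 60504 genes in the deposited expression table belong to the families described here. They are the protein-coding rows whose names begin with HSP90A, or with HSPA, HSPB, HSPD, HSPE, HSPH, DNAJA, DNAJB or DNAJC and a digit. HSPA5, DNAJB9, DNAJB11 and DNAJC3, 4 genes that belong to the stress response of the endoplasmic reticulum, were left out by that rule and serve below as part of a list for comparison. The rule used names and gene type only, and no expression value. By subfamily it took 2 HSP90A genes, 14 HSPA and HSPH genes, 9 HSPB genes, 3 HSPD and HSPE genes and 42 DNAJ genes (4 DNAJA, 10 DNAJB and 28 DNAJC). Of its members 3 are read-through genes with a hyphen in the name (HSPE1-MOB4, DNAJC25-GNG10 and HSPB2-C11orf52), whose transcripts join a chaperone gene to its neighbour.

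RNA came from HCC827, a human lung adenocarcinoma line that carries an activating mutation of EGFR. The 2D group held 3 libraries from monolayers grown in uncoated flasks for 4 to 6 days. The 3D group held 3 libraries from tumoroids grown for 12 to 16 days inside droplets of GFR Matrigel, a gel of basement membrane proteins with fewer growth factors. Both groups received the same RPMI medium with 10% serum and antibiotics, and neither received a drug. Flasks and droplets also differed in the number of cells seeded and in contact with the gel, so culture time, cell number, gel and geometry cannot be told apart. The sources used here describe enzymatic detachment for the passage of both cultures and do not say whether cells were detached before RNA was taken. Whether a group's 3 libraries stem from independent cultures is not given in the labels, so p-values here reflect nothing beyond library-to-library spread, which may be technical.

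As background, HSP70 proteins (HSPA genes) bind exposed hydrophobic stretches of other proteins in a cycle driven by ATP. J-domain proteins (DNAJ genes) deliver substrates and switch on that ATPase, while HSP110 proteins (HSPH1 and HSPA4) and BAG proteins release the spent nucleotide. HSP90 finishes the folding of kinases and receptors, mutant EGFR among them, small heat shock proteins (HSPB genes) hold unfolded proteins without ATP, and HSPD1 with HSPE1 forms the folding chamber of mitochondria. When unfolded protein accumulates, heat shock factor 1 (HSF1) binds heat shock elements, inverted repeats of GAA and TTC, in front of many of these genes.

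Elements of that kind are shown first because they divide the members in a way the naming rule did not use. RefSeq promoters (GRCh38.p14, 250 bases before to 50 after a start site) were found for 61 of the 70 members by symbol. A 3-unit element, searched as GAANNTTC followed by NNGAA or TTCNNGAA followed by NNTTC, which covers both strands, occurred in 7 of these 61 genes (11.5%). Of all 27305 genes in the promoter table, 0.608% had one. Those 7 were HSP90AA1, HSP90AB1, HSPA6, HSPA8, HSPD1, DNAJA1 and DNAJB6, and HSPA8 and HSP90AB1 each had a pair. Capitals mark the element in each window below, written 5′ to 3′ along the gene's strand.
HSPA6 (chr1:161524458-161524486, + strand, element from -74 to -62): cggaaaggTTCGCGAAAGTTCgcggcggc
HSPA8 near (chr11:123062171-123062199, - strand, element from -55 to -43): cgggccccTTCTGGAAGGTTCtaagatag
HSPA8 far (chr11:123062346-123062374, - strand, element from -230 to -218): gcgagcttGAAAGTTCCAGAAcgctgcgg
HSP90AA1 (chr14:102087112-102087140, - strand, element from -88 to -76): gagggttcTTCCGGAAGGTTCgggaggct
HSP90AB1 near (chr6:44247823-44247851, + strand, element from -112 to -100): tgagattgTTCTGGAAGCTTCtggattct
HSP90AB1 far (chr6:44247770-44247798, + strand, element from -165 to -153): ggagcaggTTCTGGAAGATTCatgggctc
HSPD1 (chr2:197500062-197500090, - strand, element from -245 to -228): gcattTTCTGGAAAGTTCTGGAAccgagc
DNAJB6 (chr7:157336865-157336893, + strand, element from -131 to -119): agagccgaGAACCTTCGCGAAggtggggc
DNAJA1 (chr9:33025268-33025296, + strand, element from 4 to 16): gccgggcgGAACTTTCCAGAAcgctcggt

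Positions count from the RefSeq start site, and the DNAJA1 element lies just inside its transcript. The HSPD1 window holds both forms overlapping, in an unbroken run of 18 bases. HSPD1 and HSPE1 point away from each other with 538 bases between their RefSeq start sites, and that run lies in between, 294 to 311 bases upstream of the HSPE1 start and so outside the HSPE1 window. The looser 2-unit forms GAANNTTC and TTCNNGAA, each its own reverse complement and each contained in the 3-unit element, occurred in 22 of the 61 members (36.1%) and in 16.2% of all genes in the table. HSPA1A and HSPA1B, the main heat-inducible HSP70 genes, had only the 2-unit form in these windows, as did HSPB1, HSPB8 and DNAJB1. TATAAA or its reverse complement TTTATA was present in 12 members (19.7%) and in 14% of all genes. A match of letters is a description of these windows and does not show that a factor binds there.
HSPA1A (chr6:31815426-31815455, + strand, element from -106 to -99): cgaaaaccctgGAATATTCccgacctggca
HSPA1B (chr6:31827622-31827651, + strand, element from -105 to -98): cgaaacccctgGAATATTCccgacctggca
HSPB1 (chr7:76302480-76302509, + strand, element from -182 to -175): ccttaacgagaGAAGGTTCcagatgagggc
HSPB8 (chr12:119178832-119178861, + strand, element from -88 to -81): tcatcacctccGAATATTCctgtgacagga

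Few members differed between the cultures by the test. Values are TPM, the share of a library's transcripts corrected for transcript length and scaled to a fixed total of 1000000, so levels can be set side by side between genes but carry no sequencing depth. Of the 70 members, 55 averaged 1 TPM or more across all libraries and were tested with limma on log2(TPM + 1). A gene is called where the p-value, Benjamini-Hochberg adjusted over all 15042 tested genes, was under 0.05. HSPA13, HSPB8 and DNAJC2 rose in 3D, HSPB1 fell, and 51 members did not pass. The 4 calls are 7.27% of tested members, where 12.3% of all tested genes were called, 10.2% higher and 2.12% lower. The 3 libraries of one culture lay wholly above or below those of the other in 20 members (36.4%), 15 higher and 5 lower in 3D. Of all tested genes 36.7% did so, 27.3% higher and 9.4% lower. An unadjusted p under 0.05 was reached by 15 members, against 31.4% of all genes. A positive log2 fold change was found for 37 of the 55, and for 60.8% of all tested genes.

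The number of called members differed between settings. Members called higher and lower numbered 1 and 0 with no filter on low TPM (2.15% and 0.254% of genes), 6 and 1 with only protein-coding genes tested (13.5% and 2.93%) and 6 and 0 with the replicate number as a block (9.83% and 2.63%). The lower call, that of HSPB1, was lost with a pseudocount of 5, without the trend, with the robust fit and without mitochondrial genes, where 2.03%, 1.73%, 2.17% and 2.19% of genes were called lower.

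The median log2 fold change of the members was 0.14 and that of all tested genes 0.12. With libraries rescaled by median ratios or quantile normalized, the median of all tested genes moved to -0.0092 and -0.035 and that of the members to -0.0041 and 0.0050. Members with a positive value then numbered 27 and 29. Over all genes the split of calls moved from 1536 higher and 319 lower to 971 and 612 with median ratios and to 869 and 576 with quantiles. Log2 fold changes are on the log2(TPM + 1) scale, on which changes of scarce transcripts come out too small, and the excess over the median gene is given for the called members.

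All members together took 5279 to 6085 TPM in the 3D libraries and 5586 to 5970 TPM in the 2D libraries, so their summed level overlapped between the cultures. HSPA8, HSP90AA1 and HSP90AB1 alone summed to 2331 ± 224 TPM in 3D and 2393 ± 192 TPM in 2D (mean ± SD, n = 3 each, as for every such pair below). The sums differed in direction by subfamily, but those of DNAJA and HSPB mostly followed a single gene each. The 42 DNAJ genes summed to 1452 to 1639 TPM in 3D and 1185 to 1414 TPM in 2D, and the 4 DNAJA genes to 328 to 400 TPM and 232 to 287 TPM, without overlap. The DNAJB sums, 321 to 390 TPM in 3D and 232 to 332 TPM in 2D, and the DNAJC sums, 769 to 849 TPM and 721 to 812 TPM, overlapped. The HSPB genes summed to 435 to 470 TPM in 3D and 583 to 676 TPM in 2D, and the HSPD and HSPE genes to 665 to 706 TPM and 744 to 1003 TPM, also without overlap. Of the mean DNAJA sums of 357 TPM in 3D and 264 TPM in 2D, DNAJA1 took 247 and 158 TPM. Of the mean HSPB sums of 452 and 616 TPM, HSPB1 took 400 and 561 TPM, while HSPB8 went the other way. After median-ratio scaling of the libraries, applied to the sums after their values were seen, all DNAJ genes gave 1366 to 1582 in 3D and 1264 to 1485 in 2D, which overlap, while the DNAJA, HSPB and combined HSPD and HSPE sums still did not overlap. With 3 libraries a group the smallest p of an exact permutation test is 0.1, so the sums were not tested.

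**Figure D1:**
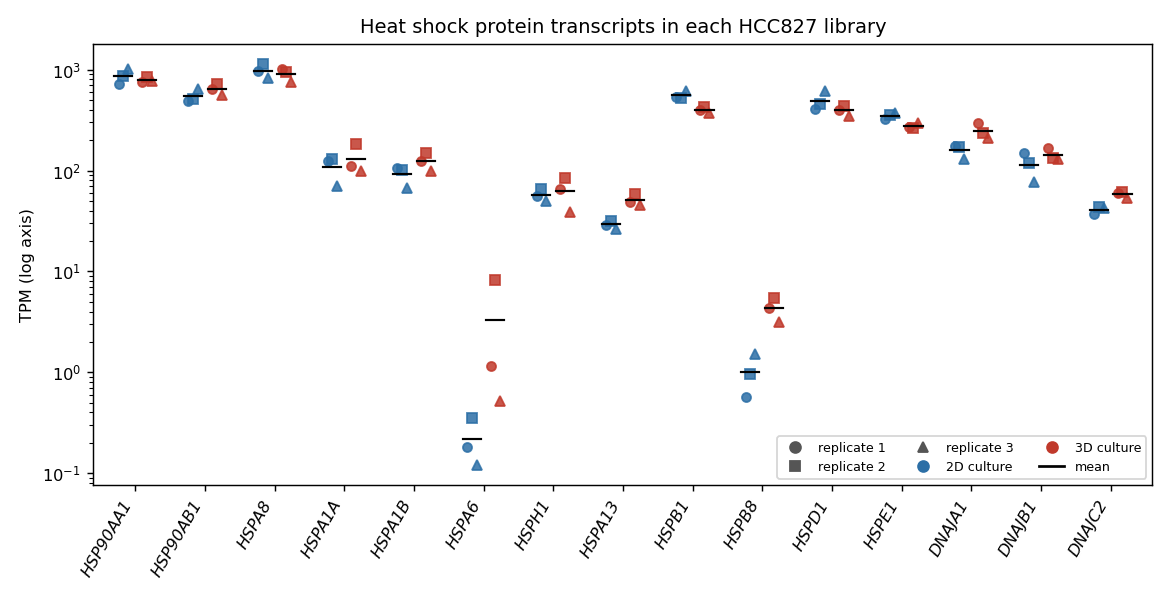
TPM on a log axis for 15 members in each of the 6 libraries, with the marker shape for the replicate number, colour for the culture and a black line for the mean of each culture. HSPA13, HSPB8 and DNAJC2 are higher in all 3 libraries of 3D culture and HSPB1 is lower, while the libraries of HSP90AA1, HSPA8, HSPA1A, HSPA1B, HSPH1 and DNAJB1 overlap.

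The cytosolic HSP90 pair was abundant in both cultures. HSP90AA1, the stress-inducible isoform (chr14:102080738-102139699, hg38), had 761, 847 and 765 TPM in 3D and 720, 857 and 1020 TPM in 2D. Its groups overlapped, with a log2 fold change of -0.12 (limma, SE 0.16, 95% interval -0.49 to 0.26, adjusted p = 0.649). HSP90AB1, the constitutive isoform (chr6:44246166-44253888), had 638, 714 and 564 TPM in 3D and 491, 518 and 644 TPM in 2D. These groups overlapped too, with a log2 fold change of 0.22 (limma, SE 0.16, 95% interval -0.15 to 0.59, adjusted p = 0.387). Without both libraries numbered 3, HSP90AB1 was called higher in 3D (log2 fold change 0.42, limma, adjusted p = 0.0350).

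Although neither isoform was called, their balance within a library did not overlap between the cultures. The ratio of HSP90AA1 to HSP90AB1 TPM was 1.19, 1.19 and 1.36 in 3D and 1.47, 1.65 and 1.58 in 2D. The means were 1.25 ± 0.0967 and 1.57 ± 0.0945. An exact two-sided permutation test gave p = 0.1, the smallest that 3 libraries against 3 allow, and the ratio was 1 of 4 computed and was chosen after its values were seen. The ratios of HSPD1 to HSPE1 (exact permutation p = 0.9) and of HSPA1A to HSPA1B (exact permutation p = 0.4) overlapped. That of HSPB1 to HSPB8 (exact permutation p = 0.1) did not. Its outcome was fixed beforehand, since HSPB1 lay wholly lower and HSPB8 wholly higher in 3D, so nothing further is read from it.

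Among the heat-inducible HSP70 genes none was called. HSPA1A (chr6:31815464-31817946) had 111, 185 and 98.6 TPM in 3D and 125, 129 and 71.0 TPM in 2D, and HSPA1B (chr6:31827735-31830255) had 125, 148 and 98.1 TPM in 3D and 107, 101 and 66.5 TPM in 2D. Both overlapped, and the library numbered 3 was the lowest of its culture for each gene in both cultures. Their log2 fold changes were 0.27 (95% interval -0.43 to 0.98) and 0.44 (95% interval -0.082 to 0.97), so a doubling, which is 1 on this scale, lies just outside each interval. These neighbours in the MHC region are near-identical: 71.2% of the 75-base windows of the longest HSPA1A transcript occur unchanged in HSPA1B transcripts. The division of reads between the pair is therefore uncertain, and their sum was 255 ± 70.2 TPM in 3D and 200 ± 53.8 TPM in 2D.

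HSPA6, an HSP70 that is normally silent and appears only under strong stress (chr1:161524540-161526910), was the least even member. It had 1.16, 8.13 and 0.52 TPM in 3D and 0.18, 0.35 and 0.12 TPM in 2D. Every 3D library lay above every 2D library, but the second 3D library alone carried most of the difference. The log2 fold change was 1.36 with an SE of 0.61 (limma, 95% interval -0.073 to 2.79, adjusted p = 0.177). HSPA6 passed the filter on low TPM only through 3D, the single member to do so, and 35.05% of its 75-base windows also occur in HSPA7, a neighbouring copy.

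HSPA8, the constitutive HSP70 and the most abundant member (chr11:123057489-123063230), had 1007, 948 and 751 TPM in 3D and 961, 1137 and 832 TPM in 2D, with full overlap (log2 fold change -0.11, 95% interval -0.53 to 0.30). HSPH1, the inducible HSP110 exchange factor (chr13:31134974-31162388), had 65.0, 83.5 and 39.1 TPM in 3D and 56.0, 64.9 and 49.4 TPM in 2D. Its 3D libraries spread more widely than the difference between the means (log2 fold change 0.080, 95% interval -0.54 to 0.70), and its sign turned with median-ratio scaling (-0.071). HSPA4, the constitutive HSP110, had 167, 166 and 169 TPM in 3D and 179, 185 and 209 TPM in 2D; the groups did not overlap, and the gene was not called (log2 fold change -0.19, limma, adjusted p = 0.312).

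HSPA13 was the clearest increase among the HSP70 genes. It encodes a truncated HSP70 of the microsomal compartment and lies at chr21:14371115-14383484. Its levels were 48.7, 58.1 and 46.0 TPM in 3D and 29.1, 31.8 and 26.6 TPM in 2D. No 3D library came near the 2D range, and its mean of 51.0 ± 6.37 TPM against 29.2 ± 2.61 TPM gave a log2 fold change of 0.78 (SE 0.14, adjusted p = 0.0164 by limma), which is 0.66 above the median gene. The adjusted p rose to 0.0689 without 3D replicate 1, 0.0653 without 3D replicate 2, 0.0522 without 2D replicate 1 and 0.0508 without 2D replicate 2.

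HSPA9, the mitochondrial HSP70 that pulls imported proteins through the inner membrane, had 212, 248 and 168 TPM in 3D and 151, 145 and 161 TPM in 2D. All 3D libraries lay above all 2D libraries, yet the gene was not called (log2 fold change 0.44, SE 0.16, limma, adjusted p = 0.113). Leaving out 3D replicate 3 gave a call (limma, adjusted p = 0.0384), as did leaving out both libraries numbered 3 (limma, adjusted p = 0.0167). HSPA14, which works at the ribosome with DNAJC2, had 13.3, 13.6 and 15.5 TPM in 3D and 10.0, 12.3 and 12.1 TPM in 2D (log2 fold change 0.28, limma, adjusted p = 0.226). Again the groups did not overlap. The testis-enriched HSPA2 and the HSP110 gene HSPA4L stood at 2.15 ± 0.807 and 9.74 ± 0.376 TPM in 3D and at 2.14 ± 0.425 and 8.75 ± 0.823 TPM in 2D, with log2 fold changes of -0.015 and 0.14. The sign of HSPA4L turned with quantile normalization (-0.069).

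The small heat shock proteins held calls in opposite directions. HSPB1 encodes HSP27, the most abundant small heat shock protein of epithelial cells, and lies at chr7:76302544-76304295. It had 402, 425 and 372 TPM in 3D and 538, 528 and 616 TPM in 2D. The highest 3D library stayed below the lowest 2D library, and the means of 400 ± 26.6 and 561 ± 48.2 TPM gave a log2 fold change of -0.49 (SE 0.13, adjusted p = 0.0490 by limma), which is -0.61 relative to the median gene. The call sat at the threshold: it was lost in 12 of 18 alternative settings, each single library left out among them, with an adjusted p up to 0.163 (limma, without 3D replicate 1), while the log2 fold change stayed between -0.53 and -0.42 when a library was left out.

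HSPB8, which works with BAG3 to pass damaged proteins to autophagy, lies at chr12:119178642-119221131. It had 4.35, 5.46 and 3.15 TPM in 3D and 0.57, 0.96 and 1.52 TPM in 2D. The cultures did not overlap, and the means of 4.32 ± 1.16 and 1.02 ± 0.478 TPM gave a log2 fold change of 1.40 (SE 0.26, adjusted p = 0.0172 by limma), which is 1.28 above the median gene. HSPB8 was not tested at a minimum mean of 5 TPM, and its call was lost with no filter on low TPM (adjusted p = 0.0648) and when 3D replicate 1 (0.0749), 3D replicate 2 (0.0747), 2D replicate 1 (0.0536) or 2D replicate 2 (0.0685) was left out (limma, adjusted p). HSPB8 stayed far less abundant than HSPB1. The ratio of HSPB1 to HSPB8 TPM was 92.4, 77.8 and 118 in 3D and 945, 550 and 405 in 2D. HSPB11, an intraflagellar transport subunit that is a small heat shock protein by name, had 47.5 ± 10.5 TPM in 3D and 53.4 ± 5.12 TPM in 2D, with overlap. The other 6 HSPB members, among them HSPB2, HSPB3, HSPB6 and HSPB7 of muscle, had a mean of at most 0.118 TPM.

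The mitochondrial chaperonin genes had negative log2 fold changes without a call. HSPD1, the HSP60 subunit of the chamber (chr2:197486581-197516737), had 401, 436 and 348 TPM in 3D and 404, 453 and 609 TPM in 2D. HSPE1, its HSP10 lid (chr2:197499994-197503457), had 272, 263 and 295 TPM in 3D and 325, 352 and 374 TPM in 2D. The HSPD1 libraries overlapped, whereas each HSPE1 library of 3D lay below each of 2D. Their log2 fold changes were -0.29 (limma, 95% interval -0.72 to 0.14, adjusted p = 0.315) and -0.34 (limma, 95% interval -0.62 to -0.052, adjusted p = 0.109). The read-through HSPE1-MOB4 ranged from 6.23 to 22.4 TPM, and 91.3% of its windows occur in other genes, chiefly MOB4, so its level is uncertain. The annotated spans of HSPD1 and HSPE1 overlap on opposite strands, and since the strand setting of the quantification is not given in the sources used here, reads from the shared stretch cannot be told apart.

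**Figure D2:**
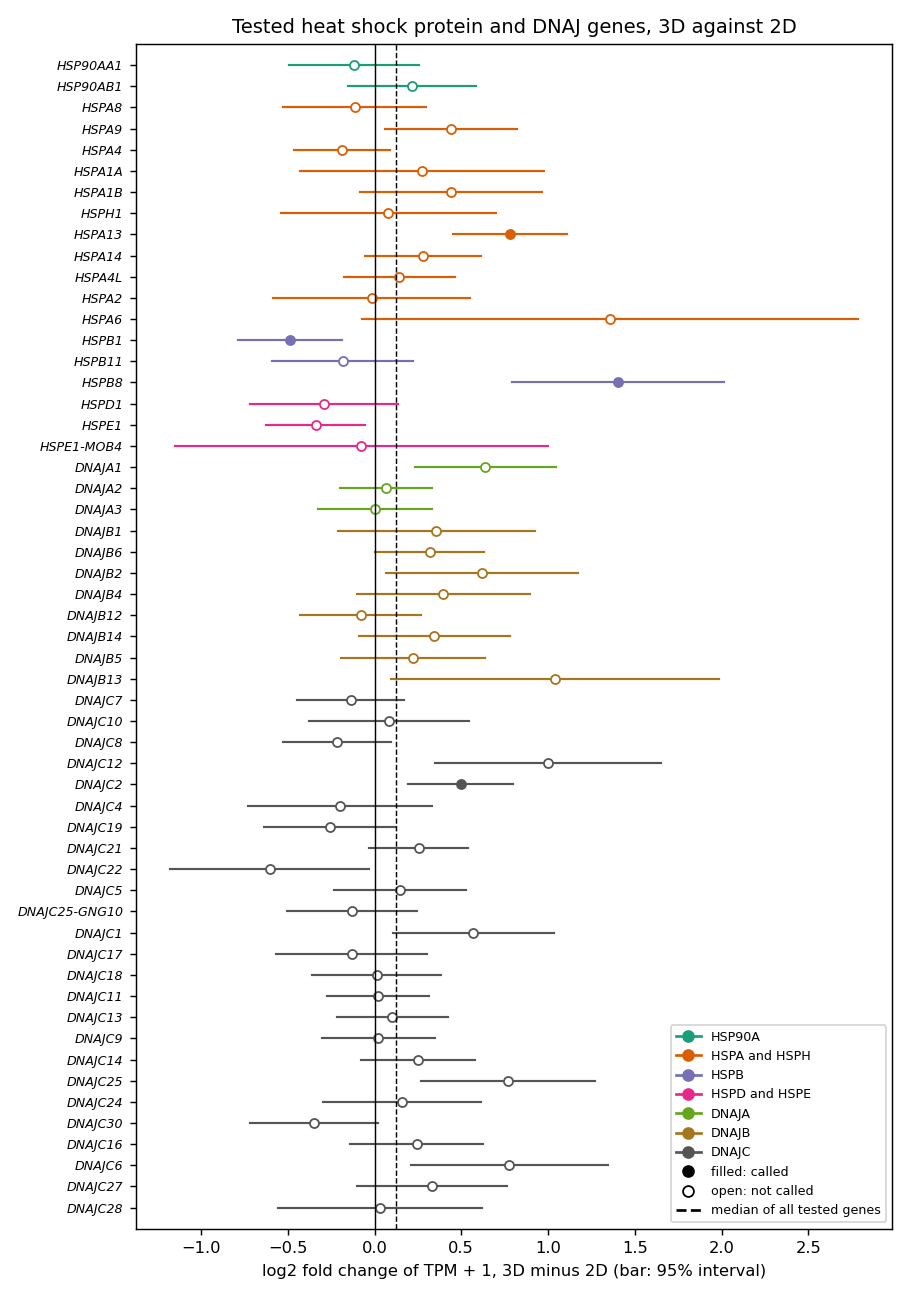
Log2 fold change (3D minus 2D, on log2 of TPM + 1) with its 95% interval for the 55 tested members, grouped by subfamily and ordered by mean TPM, with filled points for called genes and a dashed line at the median of all tested genes, 0.12. The 4 filled points are HSPA13, HSPB1, HSPB8 and DNAJC2, and the widest interval is that of HSPA6.

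Among the DNAJA and DNAJB genes, DNAJA1 came closest to a call in the main comparison. DNAJA1, a farnesylated partner of HSP70 (chr9:33025211-33039907), had 293, 237 and 212 TPM in 3D and 175, 170 and 130 TPM in 2D. The cultures did not overlap, and the log2 fold change was 0.64 (limma, SE 0.18, 95% interval 0.23 to 1.05, adjusted p = 0.0541). It was called when only protein-coding genes were tested, with the replicate block, without 3D replicate 3 and with neither library numbered 3 (limma, adjusted p = 0.0430, 0.0357, 0.0456 and 0.0229). Its relatives DNAJA2, at 72.9 ± 4.07 TPM in 3D and 69.5 ± 1.78 TPM in 2D, and the mitochondrial DNAJA3, at 35.8 ± 3.04 and 35.8 ± 4.49 TPM, had log2 fold changes of 0.066 and 0.0046. The signs of both turned with median-ratio scaling (-0.086 and -0.14), and that of DNAJA3 also with quantile normalization (-0.088).

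DNAJB1, the HSP40 that is induced together with HSPA1A, lies at chr19:14514770-14529770 and had 166, 132 and 129 TPM in 3D and 148, 120 and 76.1 TPM in 2D. The groups overlapped, with the library numbered 3 lowest in each (log2 fold change 0.36, limma, 95% interval -0.21 to 0.92, adjusted p = 0.352). DNAJB6, which suppresses aggregation of polyglutamine proteins, had 92.3, 93.5 and 74.6 TPM in 3D and 68.8, 66.1 and 72.5 TPM in 2D. Its groups did not overlap, and it was called only without both libraries numbered 3 among the settings run (limma, adjusted p = 0.154, and 0.0373 in that setting); 15.1% of its windows occur in other genes.

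Of the 8 tested DNAJB genes none was called, 7 had positive values and 1, the membrane-bound DNAJB12, had a negative value of -0.080. Of all tested genes 12.3% were called and 60.8% had positive values. Their median log2 fold change was 0.35, and it was 0.20 and 0.27 with median-ratio scaling and quantile normalization, with the same 7 to 1 split of signs. The median of all tested genes was 0.12 in the main fit and -0.0092 and -0.035 with those scalings. DNAJB2, a ubiquitin-binding J protein best known from neurons, had 50.4, 56.2 and 43.4 TPM in 3D and 44.5, 32.2 and 22.8 TPM in 2D. One 2D library overlapped the 3D range (log2 fold change 0.62, limma, adjusted p = 0.124). DNAJB13, a component of sperm flagella and cilia, had 3.96, 1.58 and 5.00 TPM in 3D and 0.87, 0.45 and 2.25 TPM in 2D, also with overlap (log2 fold change 1.04, limma, adjusted p = 0.130).

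The DNAJC genes are the most varied subfamily, sharing little beyond the J domain. Of the 25 tested 1 was called (4%), where 12.3% of all tested genes were. DNAJC2, a ribosome-bound partner of HSPA14 that meets nascent chains (chr7:103312474-103344873), had 59.8, 61.7 and 53.0 TPM in 3D and 36.7, 43.8 and 42.5 TPM in 2D. The cultures did not overlap, and the means of 58.1 ± 4.61 and 41.0 ± 3.77 TPM gave a log2 fold change of 0.50 (SE 0.13, adjusted p = 0.0489 by limma), which is 0.37 above the median gene. The call was lost in 12 of 18 settings, with adjusted p = 0.147 under median-ratio scaling, 0.112 under quantile normalization and up to 0.169 when a single library other than 3D replicate 3 was left out (limma).

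Below the threshold, other DNAJC genes also lay wholly above the 2D libraries. With DNAJC2 included, 8 of the 25 tested lay wholly above and 2 wholly below. Of all tested genes 27.3% lay wholly above and 9.4% wholly below. DNAJC12, a partner of the aromatic amino acid hydroxylases, had 84.0, 61.9 and 74.8 TPM in 3D and 45.4, 45.7 and 22.4 TPM in 2D (log2 fold change 1.00, SE 0.28, limma, adjusted p = 0.0562). DNAJC25, a membrane J protein, had 13.1, 18.1 and 9.91 TPM in 3D and 6.91, 8.19 and 7.20 TPM in 2D (log2 fold change 0.77, limma, adjusted p = 0.0573). Its read-through DNAJC25-GNG10, 89.7% of whose windows occur in other genes, was at 29.3 ± 0.627 and 32.6 ± 6.15 TPM, with overlap and a log2 fold change of -0.13. DNAJC6, auxilin, which uncoats clathrin vesicles, had 3.75, 5.84 and 3.09 TPM in 3D and 2.49, 1.88 and 1.63 TPM in 2D (log2 fold change 0.78, limma, adjusted p = 0.0769). DNAJC1, of the endoplasmic reticulum membrane, had 23.3, 26.0 and 25.6 TPM in 3D and 19.4, 19.4 and 11.9 TPM in 2D (log2 fold change 0.57, limma, adjusted p = 0.0999). None of these 4 was called in the main comparison; DNAJC12 and DNAJC25 were called without both libraries numbered 3, with the replicate block and with only protein-coding genes tested.

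The 3 most abundant DNAJC genes were not called, and each of their 95% intervals included 0. DNAJC7, which holds clients between HSP70 and HSP90, had 147 ± 17.4 TPM in 3D and 162 ± 7.63 TPM in 2D (log2 fold change -0.14, 95% interval -0.44 to 0.17). DNAJC10, a disulfide reductase of the endoplasmic reticulum, had 79.3 ± 16.4 and 74.5 ± 12.6 TPM (0.082, 95% interval -0.38 to 0.54, and -0.069 with median-ratio scaling). DNAJC8, a spliceosome-associated J protein, had 62.1 ± 8.04 and 71.9 ± 1.85 TPM, without overlap and without a call (-0.21, 95% interval -0.53 to 0.10). The lowest value among tested members was that of DNAJC22, at 21.9, 20.9 and 33.5 TPM in 3D and 41.9, 47.4 and 28.2 TPM in 2D (log2 fold change -0.60, limma, adjusted p = 0.143). The libraries numbered 3 crossed between the groups, and it was called lower without both of them (limma, adjusted p = 0.00577).

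The other 15 members, those under a mean of 1 TPM, were not tested. The highest of these were HSPA12A at 0.752 TPM and DNAJA4 at 0.437 TPM over the 6 libraries. DNAJA4 was listed at 0.64, 0.90 and 0.63 TPM in 3D and 0.19, 0.14 and 0.12 TPM in 2D, without overlap. DNAJC15, a mitochondrial J protein, was listed at 0.07, 0.03 and 0.08 TPM in 3D and 0.21, 0.29 and 0.50 TPM in 2D, the other way round. HSPB3 was listed at 0 in every library. The values are too low for a fold change on this scale to be read.

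The 7 members with a 3-unit heat shock element did not share a direction. DNAJA1, DNAJB6, HSP90AB1 and HSPA6 had positive log2 fold changes of 0.64, 0.32, 0.22 and 1.36, and HSPA8, HSP90AA1 and HSPD1 had negative ones of -0.11, -0.12 and -0.29. None of the 7 was called, and at the 12.3% of all tested genes that were, 7 genes would hold under 1 call, so nothing is read from that count. The 11 classical stress chaperones fixed by name (HSP90AA1, HSP90AB1, HSPA1A, HSPA1B, HSPA6, HSPA8, HSPH1, HSPB1, HSPD1, HSPE1 and DNAJB1) had a median log2 fold change of 0.080, and 1 of them, HSPB1, was called, as lower.

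Replicate numbers were compared for their extremes in both cultures. In 14 of the 55 tested members (25.5%) the library numbered 3 was the lowest of its culture in both 2D and 3D, against 17.5% of all tested genes. They included 6 of the 11 stress chaperones: HSPA8, HSPA1A, HSPA1B, HSPH1, HSPA6 and DNAJB1. It was the highest in both cultures for 9 members (16.4%) and for 16.8% of all genes, HSPE1 and HSPA4 among them. The library numbered 2 was the highest in both cultures for 9 members (16.4%), HSPA1A, HSPH1 and HSPA6 among them, and for 8.29% of all genes. When both libraries numbered 3 were left out, 10 members were called higher and 2 lower, where 16.3% and 8.97% of all tested genes were called. The 10 were HSP90AB1, HSPA9, HSPA13, HSPB8, DNAJA1, DNAJB6, DNAJB14, DNAJC2, DNAJC12 and DNAJC25, and the 2 were HSPB1 and DNAJC22. With 3D replicate 1 or 2 or 2D replicate 1 or 2 left out alone, no member was called, where 2.64%, 2.89%, 5.33% and 3.17% of all tested genes were. Without 3D replicate 3 alone 6 members were called higher (10.7% of genes), and without 2D replicate 3 alone 3 (10.5%).

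**Figure D3:**
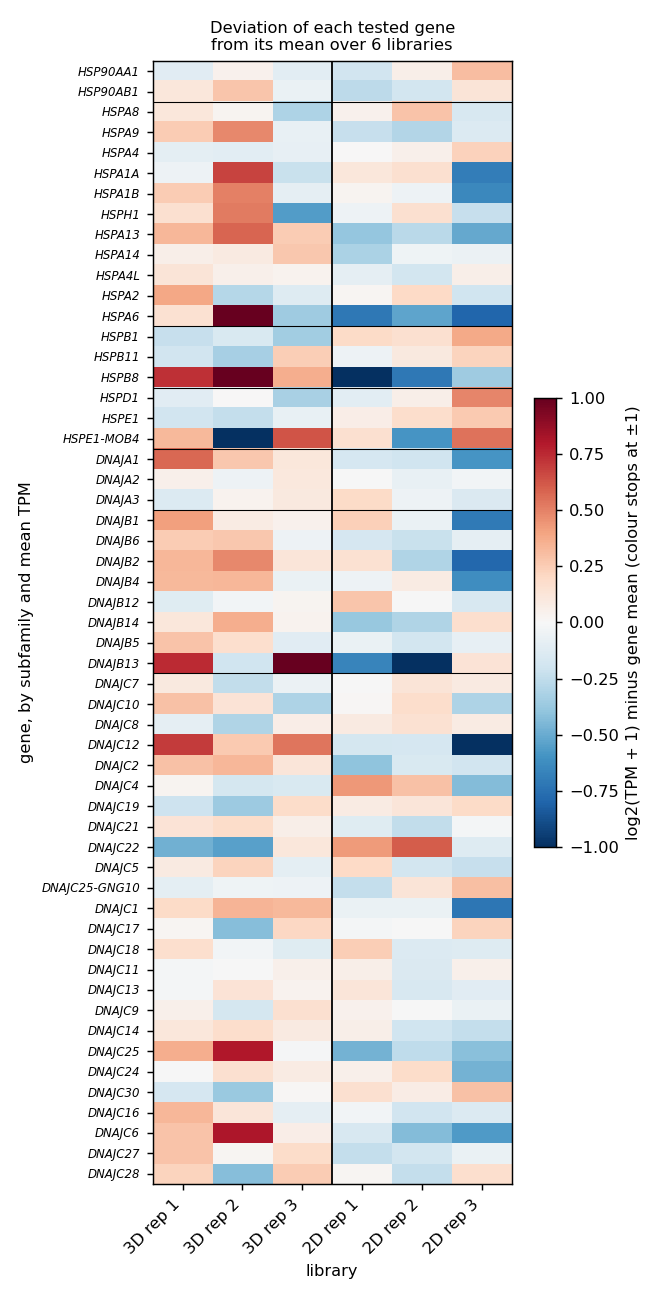
Deviation of log2(TPM + 1) from the gene's mean over the 6 libraries for the 55 tested members, by subfamily and mean TPM, with red above and blue below the mean and the colour limited to 1 in either direction. HSPA13, HSPB8 and DNAJC2 are red in all 3 libraries of 3D, and HSPA1A, HSPA1B and DNAJB1 are darkest blue in 2D replicate 3.

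Partner genes outside the families were read from the same fit. For comparison with every list below, 12.3% of all tested genes were called, 10.2% higher and 2.12% lower. An unadjusted p under 0.05 was reached by 31.4% of them (limma), and 60.8% had a positive log2 fold change. None of 19 HSP90 co-chaperones was called, with a median log2 fold change of 0.034 (3 had an unadjusted p under 0.05; limma). The list includes ST13, which bridges HSP70 and HSP90, at 238 ± 31.7 TPM in 3D and 233 ± 6.79 TPM in 2D, and PTGES3, the p23 co-chaperone, at 226 ± 9.15 and 221 ± 22.8 TPM. None of 14 genes of the cytosolic chaperonin TRiC and its feeder prefoldin was called (1 had an unadjusted p under 0.05; limma), with a median of -0.10. Their most abundant subunits were CCT6A, at 1147 ± 105 TPM in 3D and 1093 ± 86.4 TPM in 2D, and PFDN5, at 487 ± 64.6 and 524 ± 82.5 TPM. Without both libraries numbered 3, 16.3% of all tested genes were called higher and 8.97% lower. In that setting STUB1, a ubiquitin ligase that docks on HSP70 and HSP90, was called lower, and the co-chaperones CHORDC1 and PPID were called higher. VBP1, of the TRiC and prefoldin list, was called lower. With only 3D replicate 3 left out (1607 genes called higher and 551 lower), STUB1, CHORDC1 and PPID were called in the same directions. STUB1 was also called lower with median-ratio scaling (612 genes lower).

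BAG proteins, which release nucleotide from HSP70, held the calls among the exchange factors. Of 10 genes in that list, BAG5 and BAG1 rose and 8 did not pass. The 2 calls are 20% of the list, against 12.3% of all tested genes. BAG5, which has several BAG domains, had 24.4, 30.1 and 22.7 TPM in 3D and 11.7, 9.75 and 12.0 TPM in 2D (log2 fold change 1.13, SE 0.16, adjusted p = 0.00706 by limma). Every 3D library was well above every 2D library, and the call held in all 18 settings (adjusted p up to 0.0382; limma). BAG1 had 50.6 ± 3.94 TPM in 3D and 30.4 ± 7.5 TPM in 2D (0.75, SE 0.20, limma, adjusted p = 0.0484). That call was lost in 9 of 18 settings, including both other scalings and each single library left out except 2D replicate 3, with an adjusted p up to 0.159 (limma). BAG3, the partner of HSPB8, had 20.7, 25.2 and 22.4 TPM in 3D and 18.9, 16.2 and 24.9 TPM in 2D, with overlap.

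Heat shock factors were not called. HSF1, the main regulator, had 34.7, 42.2 and 37.0 TPM in 3D and 55.8, 44.0 and 42.0 TPM in 2D (log2 fold change -0.30, limma, adjusted p = 0.219). HSF2 had 12.5, 14.5 and 10.1 TPM in 3D and 8.35, 9.59 and 9.83 TPM in 2D (0.37, limma, adjusted p = 0.176). HSF1 overlapped between the cultures and HSF2 did not. None of 5 heat shock factors and binding proteins was called, and none had an unadjusted p under 0.05 (limma). A list of other classical heat shock targets held 10 tested genes, 7 with positive and 3 with negative log2 fold changes, and most were not called. Of all tested genes 60.8% had a positive value. From that list SERPINH1, the collagen chaperone HSP47, rose, with 34.2 ± 4.94 TPM in 3D and 20.4 ± 1.85 TPM in 2D (log2 fold change 0.71, limma, adjusted p = 0.0264). Its 3D libraries, at 28.7, 35.4 and 38.4 TPM, all lay above those of 2D, at 21.8, 18.3 and 21.0 TPM. The call was lost with no filter and when any library numbered 1 or 2 was left out (limma, adjusted p up to 0.1001).

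The lists of endoplasmic reticulum genes and of mitochondrial genes held 1 call, a lower one. HSPA13 and SERPINH1, both called higher, are on neither list. All 12 genes of the endoplasmic reticulum list, the 4 excluded family members among them, had log2 fold changes above 0, with a median of 0.37. Of all tested genes 60.8% had a value above 0. None of the 12 was called and 5 had an unadjusted p under 0.05 (limma), against 12.3% and 31.4% of all tested genes. HSPA5, the HSP70 of that compartment, had 360, 497 and 361 TPM in 3D and 266, 252 and 317 TPM in 2D, and the HSP90 paralog HSP90B1 had 656 ± 84.7 and 447 ± 90.7 TPM. DNAJB9, a J-domain cochaperone of the same compartment, had a log2 fold change of 1.18 (limma, adjusted p = 0.0582), and it was called with the replicate block, with protein-coding genes only (limma, adjusted p = 0.0430), without both libraries numbered 3 (0.00768) and with that of 3D alone left out (0.0463). HSPA5 and the lectin chaperone CANX were called, of the settings run, only without both libraries numbered 3 (limma, adjusted p = 0.0250 and 0.0258). HSP90B1 was called when 2D replicate 3 was left out (limma, adjusted p = 0.0227) or both libraries numbered 3 were (limma, adjusted p = 0.0108). The 8 mitochondrial chaperones and proteases had a median log2 fold change of 0.086, with 5 positive and 3 negative, and the median was -0.062 after median-ratio scaling and -0.078 after quantile normalization, each with 3 positive and 5 negative. Of the 8, CLPP, a matrix protease, fell, with 48.9 ± 6.96 TPM in 3D and 76.7 ± 5.15 TPM in 2D (log2 fold change -0.65, adjusted p = 0.0282 by limma), and 7 did not pass. The CLPP call was lost with no filter and when any library numbered 1 or 2 was left out (limma, adjusted p up to 0.119). TRAP1, the mitochondrial HSP90, had 108, 117 and 104 TPM in 3D and 138, 124 and 153 TPM in 2D, without overlap and without a call (-0.33, limma, adjusted p = 0.133).

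Immediate early genes, a different class of stress-responsive transcripts, moved in the same libraries. All 11 of a list that holds FOS, JUN and their relatives rose, with a median log2 fold change of 2.46 and a summed level of 3881 to 4706 TPM in 3D and 757 to 1001 TPM in 2D. FOSB, an AP-1 subunit, had 451, 291 and 204 TPM in 3D and 6.39, 5.55 and 7.79 TPM in 2D, and ATF3, a stress-induced factor, had 1043, 713 and 534 TPM and 17.6, 14.5 and 12.7 TPM. The list was fixed with earlier results of these data known, and 8 to 10 of its genes were called when single libraries were left out. Any part of these transcripts' rise in the chaperone values was not tested.

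**Figure D4:**
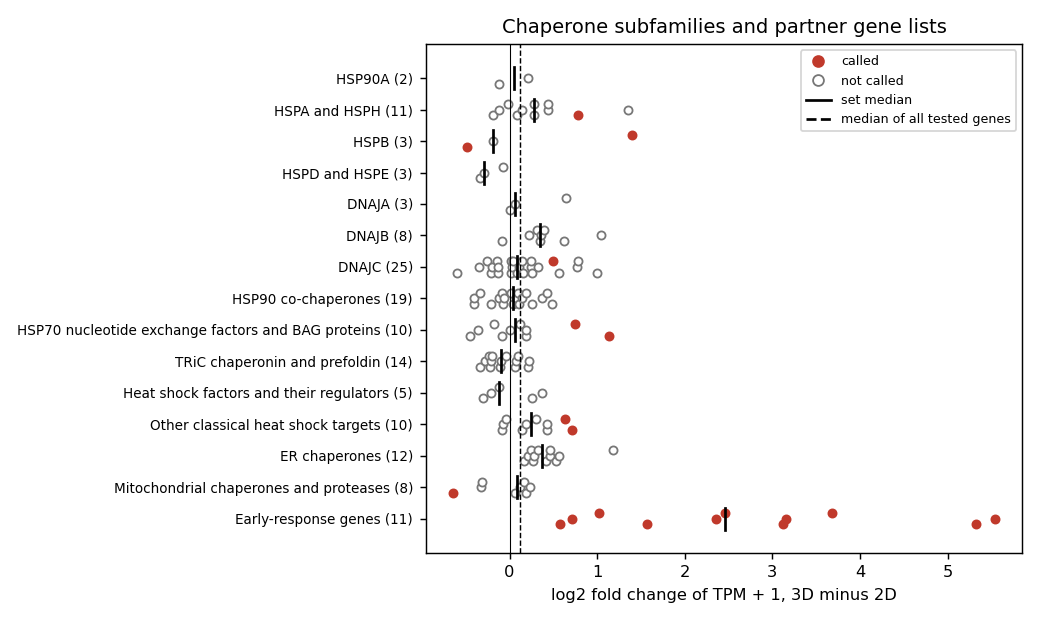
Log2 fold change (3D minus 2D) of each tested gene in the 7 subfamilies and 8 partner lists, with the number tested in brackets, red points for called genes, a black bar for the median of each set and a dashed line for the median of all tested genes. All 11 early-response genes are called, at 0.58 to 5.54, while the medians of the 7 subfamilies lie between -0.29 and 0.35.

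The libraries carried the markers of the labelled cells. EPCAM, an epithelial surface protein, had 567 to 631 TPM in all 6, and of 8 epithelial and lung adenocarcinoma markers, all tested, KRT7 was called lower in 3D. The log2 fold change was negative for 5 of the 8, with a median of -0.28. The keratins KRT18, KRT8 and KRT19 had -0.77, -0.65 and -0.51 and were not called, but all 3 were called lower when 3D replicate 3 was left out (limma, adjusted p = 0.0134, 0.0300 and 0.0370) or both cultures' libraries of that number were, and KRT18 also with the replicate block (limma, adjusted p = 0.0417). The 6 fibroblast markers summed to 6.99 to 12.1 TPM in 3D and 2.10 to 2.96 TPM in 2D, most of it COL1A1, which was called higher, with COL3A1 listed at 0 throughout and COL1A2 at 0.01 TPM or less. The 4 endothelial markers summed to 1.51 to 3.98 and 0.68 to 1.46 TPM. Of 5 leukocyte markers CD68 made up nearly all of 48.5 to 98.7 TPM, and PTPRC, which defines leukocytes, was at 0.25 TPM or less. Mitochondrially encoded genes made up 12.3% to 19.4% of all TPM in 3D and 14.4% to 17.5% in 2D. The part of these differences in the chaperone values was not tested, and in bulk RNA fewer cells of a kind cannot be told apart from less RNA per cell.

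Sequence shared with other genes limits a few members. For 69 members a protein-coding transcript was found in GENCODE 29, and the longest was compared in 75-base windows, the read length, with the transcripts of all other genes. In 41 of the 69 no window was shared. The abundant HSP90AA1, HSP90AB1 and HSPD1 shared 6.11%, 5.35% and 10.1% of windows, mostly with pseudogenes, HSPE1 shared 22.3% and HSPB1 7.90%. Pseudogenes named after members, 88 in the table, summed to 15.2 to 20.0 TPM in 3D and 11.2 to 22.8 TPM in 2D, far below the members themselves.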

How the data were processed

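Poly(A) RNA of 6 HCC827 libraries (3 from 3D and 3 from 2D culture) was sequenced as single-end reads of 75 bases with a directional kit, from RNA with an integrity number above 9, per the labels' protocols. The authors deposited TPM per gene and library; each column sums to 1000000 apart from rounding. The submitters' processing notes name cutadapt 2.3, STAR 2.7.0d, RSEM 1.3.1 and the build hg38, with no role or order. The sources used here do not give the annotation release, strand setting or filters, and TPM keeps no depth, so depth is unknown and no counting interval is given.

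Groups came from the sample titles. The two-sided 3D against 2D comparison used limma 3.58.1 in R 4.3.3 (linear fit, empirical Bayes with a trend) on log2(TPM + 1), for genes averaging 1 TPM or more, and p-values were adjusted by Benjamini-Hochberg over that whole table. The fit was run on simulated data with independent noise. Those data held no scaling shift and no structure shared between libraries, so that run does not check either. Named were all called members, the 3 most abundant of each subfamily, 11 stress chaperones, HSF1, HSF2 and 2 genes from each of 8 partner lists; other members, including those close to a call or listed low, were named after their values were seen. The members, lists and the rule were chosen with earlier results of these data known. Alternatives were pseudocounts of 0.1 and 5, no filter or a mean of 5 TPM, median-ratio or quantile scaling, a fit without the trend or with robust variances, a block for the replicate number, each library or both libraries numbered 3 left out, mitochondrial genes left out and protein-coding genes only. Coordinates and transcripts are from GENCODE 29 (GRCh38), in which all 70 identifiers were found, and promoters from RefSeq (GRCh38.p14). Protein motifs were not analysed here, and 1 gene of the partner lists is not reported here. Figures used matplotlib 3.10.9.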

Additional observations from a re-analysis of the deposited data

How the results depend on the processing

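Counts of called members depended on most choices. Against 3 higher and 1 lower, 1 and 0 members were called with no filter, 6 and 0 with the replicate block, 6 and 1 with protein-coding genes only, and 10 and 2 without both libraries numbered 3. Over all tested genes, 10.2% were called higher and 2.12% lower in the main fit. In the same order, these settings gave 2.15% and 0.254%, 9.83% and 2.63%, 13.5% and 2.93%, and 16.3% and 8.97%. The count of lower members was 0 with a pseudocount of 5, without the trend, with the robust fit and without mitochondrial genes. In those settings 1.73% to 2.19% of all tested genes were called lower. Leaving out single libraries gave 0 to 6 higher and 0 to 0 lower members. Over all tested genes it gave 367 to 1607 higher and 29 to 563 lower. The causes of these differences were not tested. Some of the settings also change the number of libraries or the number of genes tested. Whether replicate numbers pair the libraries is not settled. Same-numbered deviations from the culture mean correlated across genes at 0.101, 0.0365 and 0.185 for numbers 1 to 3. Differently numbered ones correlated at -0.168 to 0.127. The value for number 3 was the highest, while 3D replicate 1 correlated better with 2D replicate 2 (0.127) than with 2D replicate 1. With 3 libraries a culture, centred on their mean, these values cannot decide it, so the block is read as a shared number only.

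Of 465 values for the 26 named members under the alternatives, 403 kept direction and side of the threshold, 33 lost a call, 8 gained one and 21 turned sign, none of the last with a call. Of these members median-ratio scaling turned HSPH1 (-0.071), DNAJA2 (-0.086), DNAJA3 (-0.14) and DNAJC10 (-0.069), and quantile normalization turned DNAJA3 (-0.088). Of the partner genes median-ratio scaling turned ST13 (-0.13), PTGES3 (-0.12) and CCT6A (-0.086). Among all tested members 12 turned with either scaling, none with a main log2 fold change above 0.16 in size. Without both libraries numbered 3, HSP90AA1 stood at 0.032 and DNAJA3 at -0.12. With single libraries left out the log2 fold change ranged from -0.24 to 0.0089 for HSP90AA1, -0.22 to 0.012 for HSPA8, -0.0013 to 0.45 for HSPA1A, -0.16 to 0.38 for HSPH1, -0.41 to 0.44 for HSPE1-MOB4, -0.068 to 0.10 for DNAJA3, -0.052 to 0.26 for DNAJC10, -0.041 to 0.14 for ST13 and -0.027 to 0.11 for PTGES3. Depth cannot be read from TPM, so members listed near 0 cannot be told from unsampled ones.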
